A study of Mus musculus with 4 samples.

Results

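The genes described here are 48 regulators of chromatin structure: the SWI/SNF, ISWI and CHD remodellers, the NuRD complex, histone acetyltransferases and deacetylases, and the Polycomb complexes PRC1 and PR-DUB. They were taken from a list of names, matched to the Ensembl identifiers of the deposited files through GENCODE M21, and grouped by complex. All 48 were found among the 25261 genes of the files, and all 48 were among the 21829 genes with enough signal to be tested. The cells were adult neural stem cells of C57BL/6 mice, aged 8 weeks, and were infected with a lentivirus. In the shOGT group (2 libraries) the virus carried a short hairpin RNA against Ogt, and in the ctrl group (2 libraries) it carried a scrambled hairpin, so that both groups had been infected. Ogt encodes the enzyme that attaches the sugar O-GlcNAc to serine and threonine residues of nuclear and cytoplasmic proteins. Whether replicate libraries stem from separate cultures is not in the labels. All p-values below therefore measure only the spread between these libraries, which may be technical.

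Remodelling ATPases use ATP to slide, space or evict nucleosomes. In neural cells the SWI/SNF complex is built from interchangeable paralogs, and progenitors exchange some of them, Actl6a for Actl6b among them, when they become neurons. Acetyltransferases place acetyl groups on histone tails at active genes, and deacetylases, often held in corepressor complexes with Ncor1 or in NuRD, remove them. PRC1 ubiquitinates histone H2A at repressed genes, and PR-DUB, formed by Bap1 and an Asxl protein, removes that mark. OGT protein is itself a known partner of the PR-DUB subunit Hcfc1 and of the TET enzymes.

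Reads assigned to genes numbered 15697508 and 17753976 in shOGT cells and 16909316 and 17090949 in ctrl cells, as implied by the step between the deposited values. Ogt itself fell by 16.4%, with a signal of 3379 and 3516 in shOGT libraries, against 4112 and 4137 in ctrl libraries (log2 fold change -0.26 ± 0.04 SE, limma adjusted p = 0.00876). Neural stem cell markers were abundant in all libraries, with summed signals of 122587 and 127800 in shOGT and 132046 and 135586 in ctrl cells. Oligodendrocyte progenitor markers, mostly Olig1, summed to 40374 and 39891 in shOGT and 39259 and 39977 in ctrl cells. Astrocyte markers summed to 14720 and 14972 in shOGT and 17799 and 17277 in ctrl cells. Fabp7, a neural stem cell marker, fell. Of the same list, Nes, Msi1 and Vim had log2 fold changes of 0.10, 0.17 and 0.09. Sox2, Pax6 and Slc1a3 were at -0.025, -0.019 and -0.08, and none of these genes passed. Among 6 astrocyte markers Aldh1l1, Gja1 and Slc1a2 fell, while S100b at 0.08, Aqp4 at -0.33 and Gjb6 at -0.72 did not pass. Of 5 oligodendrocyte progenitor markers Pdgfra and Gpr17 fell, while Olig1 at 0.04, Cspg4 at -0.18 and Sox10 at -0.39 did not pass. No oligodendrocyte, endothelial or mural marker passed. The summed signal of 5 microglial markers lay between 6.94 and 12.3 per library. Of the 7 neuronal markers none passed the test, with sums of 418 and 515 in shOGT and 393 and 384 in ctrl cells. The part of these marker differences in the results below was not tested. In RNA from whole cultures, fewer cells of a type and less RNA per cell cannot be told apart.

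Of the 48 genes, 3 rose in shOGT cells and none fell: the SWI/SNF subunit Smarcd1 (by 28.6%), the CHD remodeller Chd1 (by 18.0%) and the SWI/SNF ATPase Smarca4 (by 15.0%). Differences of the other 45 did not pass the test, and 34 of the 48 differed between the group means by under 10%. Fold changes are on the log2(value + 1) scale, and a gene was called where limma's Benjamini-Hochberg adjusted p over all tested genes was under 0.05. The 3 genes are 6.25% of the list, against 4.86% of all tested genes called in either direction, so that the share of called members lay near the background. By direction, 6.25% of the list and 1.96% of all tested genes were called higher, and 0 of the 48 and 2.9% of all tested genes were called lower; with 3 genes called, no more is read from these shares. With libraries rescaled to equal totals, 50.3% of the transcriptome's calls were higher, against 40.3% with the values as deposited.

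The calls depended on the fit. When any 1 of the 4 libraries was left out and the same genes were kept, none of the 48 passed and none of the 21829 tested genes did, with 6 to 12 of the 48 and 2484 to 3389 of all genes at an unadjusted p under 0.05. Without a filter on low values, with quantile normalization or without limma's variance trend, no member passed either. The 3 called genes were higher in shOGT cells in all 17 fits run. Log2 fold changes were 0.34 to 0.39 for Smarcd1, 0.21 to 0.27 for Chd1 and 0.16 to 0.25 for Smarca4. With a library left out their sign could not turn, since both shOGT libraries lay above both ctrl libraries in each gene. Nor do the filter, the variance trend or the replicate block alter a gene's fold change. The 17 fits are thus not separate support for the direction.

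To let the 2 called SWI/SNF subunits, and the pair exchanged between progenitors and neurons, be compared at the sequence level, the start regions of Smarcd1, Smarca4, Actl6a and Actl6b are printed from RefSeq (GRCm38.p6, 300 bases around the transcript start, 5′ to 3′). All 4 lie on the plus strand: Smarcd1 at chr15:99702037-99702336, Smarca4 at chr9:21615919-21616218, Actl6a at chr3:32708296-32708595 and Actl6b at chr5:137553296-137553595. Capitals mark matches, on either strand, to the motifs searched: the GC box GGGCGG, the ETS core CCGGAA, the NRF1 half-palindrome GCATGCGC, the YY1 core AAGATGGC, the CCAAT box, the E-box CACGTG and the TATA box TATAAA.
Smarcd1: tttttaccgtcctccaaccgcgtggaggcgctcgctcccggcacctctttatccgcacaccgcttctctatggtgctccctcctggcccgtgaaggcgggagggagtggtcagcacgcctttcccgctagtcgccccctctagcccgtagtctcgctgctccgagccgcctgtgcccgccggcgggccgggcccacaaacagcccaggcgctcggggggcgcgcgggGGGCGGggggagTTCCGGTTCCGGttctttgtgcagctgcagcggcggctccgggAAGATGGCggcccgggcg
Smarca4: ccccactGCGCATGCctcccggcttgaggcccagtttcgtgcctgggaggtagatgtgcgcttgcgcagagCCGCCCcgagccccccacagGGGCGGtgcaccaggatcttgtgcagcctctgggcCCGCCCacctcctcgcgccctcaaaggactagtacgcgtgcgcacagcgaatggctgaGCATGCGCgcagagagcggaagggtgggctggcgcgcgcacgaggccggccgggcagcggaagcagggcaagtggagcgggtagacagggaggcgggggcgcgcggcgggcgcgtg
Actl6a: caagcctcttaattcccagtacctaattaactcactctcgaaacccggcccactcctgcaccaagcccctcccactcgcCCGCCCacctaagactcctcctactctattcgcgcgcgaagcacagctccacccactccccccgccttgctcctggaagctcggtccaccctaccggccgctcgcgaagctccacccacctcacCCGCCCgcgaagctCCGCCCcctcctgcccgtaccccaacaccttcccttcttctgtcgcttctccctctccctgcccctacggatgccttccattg
Actl6b: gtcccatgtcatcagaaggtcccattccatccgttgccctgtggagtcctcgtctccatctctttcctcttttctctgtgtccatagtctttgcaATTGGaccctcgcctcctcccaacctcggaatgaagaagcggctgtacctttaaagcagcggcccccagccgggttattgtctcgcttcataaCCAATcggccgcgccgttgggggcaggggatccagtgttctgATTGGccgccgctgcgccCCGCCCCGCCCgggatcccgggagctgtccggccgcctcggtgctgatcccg

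The Smarcd1 window held 35 CpG dinucleotides, a GC box, a pair of ETS cores side by side just before the start and a YY1 core just after it. Smarca4 had 33 CpG dinucleotides, 3 GC boxes and 2 NRF1 half-palindromes, and no motif match was shared by both called subunits other than the GC box. Actl6a, with 21 CpG dinucleotides, had 3 GC boxes and no CCAAT box, whereas Actl6b, with 23, had 3 CCAAT boxes and 2 GC boxes that share a base. Such letter matches are descriptions and not binding sites.

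RefSeq gave 46 start windows for 39 of the 48 genes, and the called gene Chd1 was not among these 39. A GC box stood in 39 of these 46 windows (84.8%), against 35.7% of all 32851 windows of the same length. All windows belonged to 27025 genes, whether or not tested here, and were not matched to the members for level. The median window of the members held 29.5 CpG dinucleotides, against 7 over all windows. ETS cores were found in 30.4% of the members' windows and 14.9% of all, E-boxes in 13.0% and 7.15%, and NRF1 half-palindromes in 8.70% and 2.71%. YY1 cores stood in 4.35% of the members' windows and 2.75% of all. The CCAAT box stood in 32.6% of the members' windows and 37.4% of all, and the TATA box in 4.35% and 13.6%. Most of the members' start regions thus held GC boxes and many CpG dinucleotides.

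**Figure D1:**
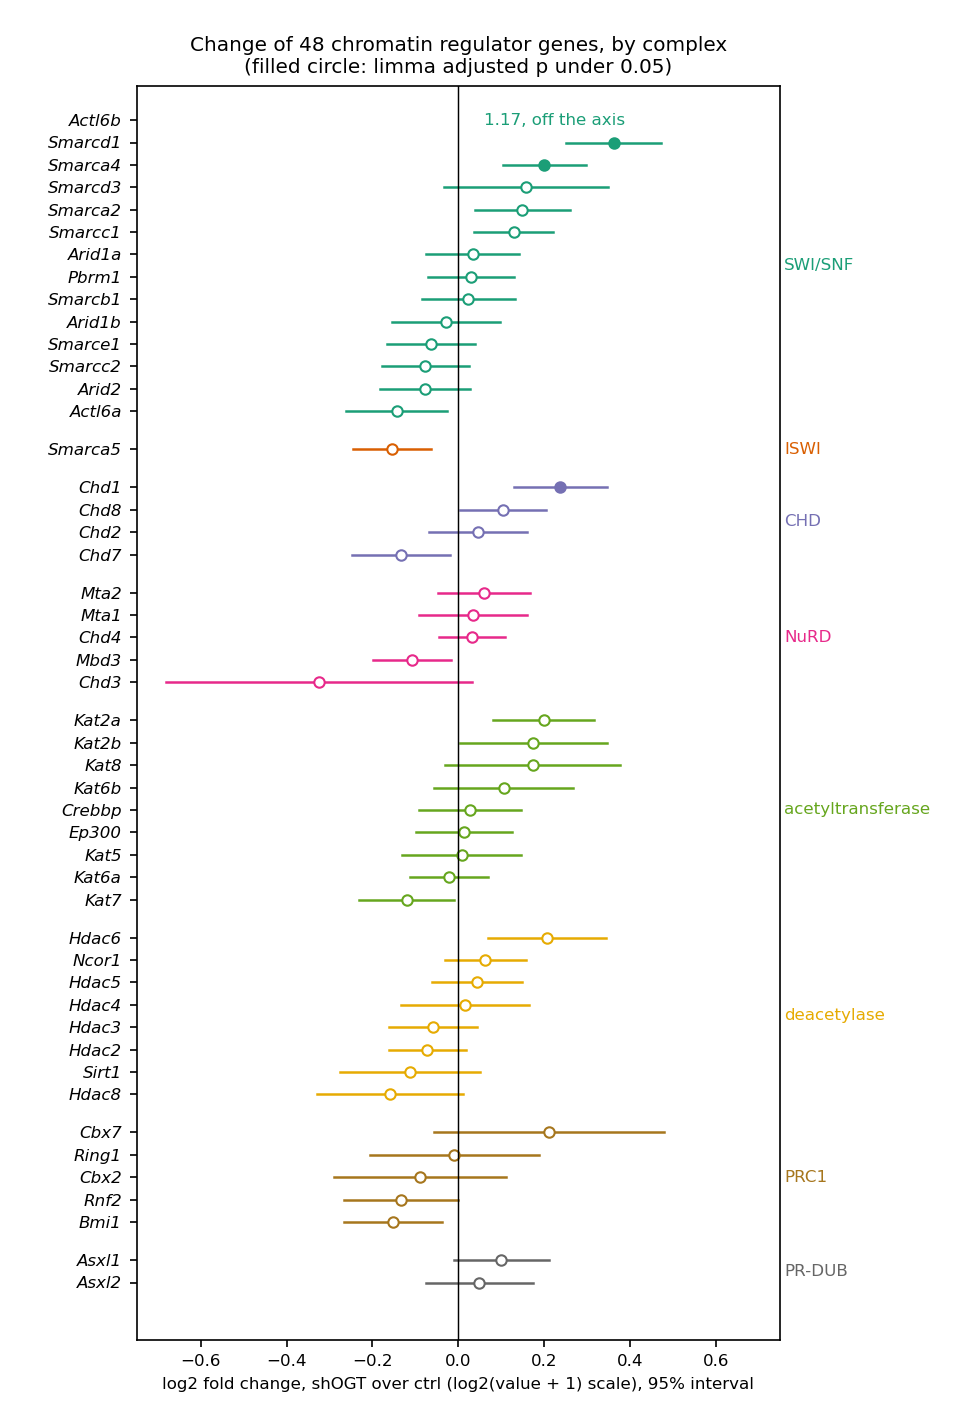
Log2 fold change of shOGT over ctrl for the 48 genes, grouped by complex, with 95% intervals from limma (horizontal axis, log2(value + 1) scale). Filled circles mark Smarcd1, Smarca4 and Chd1, the only genes past an adjusted p of 0.05; Actl6b, at 1.17, lies off the axis and is written in.

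The differences of the 48 genes were small in size and went both ways. Their median log2 fold change was 0.03, against 0.0012 over all tested genes, and their median absolute change was 0.10, against 0.18 over all tested genes, whose median level per kb was lower than that of the members. Fold changes ran between -0.32 for Chd3 and 1.17 for Actl6b, and without Actl6b the highest was the 0.36 of Smarcd1. The 95% intervals reached a median of 0.11 to either side of the estimate, and under 0.2 for 40 of the 45 uncalled genes. Of those 45 intervals, 31 held 0. At an unadjusted p under 0.05 stood 17 of the 48 genes (35.4%), 10 of them higher and 7 lower, against 4214 of the 21829 tested genes (19.3%). These shares were not compared at equal level, and no excess is read from them.

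In 16 of the 48 genes (33.3%) both shOGT libraries lay above both ctrl libraries, where 25.0% of all tested genes did so. In another 16 (33.3%) both shOGT libraries lay below, against 24.3% of all tested genes. The remaining 16 overlapped. These shares were not matched for level either. With 2 libraries in each group the smallest 2-sided exact permutation p is 0.333, so that separation alone cannot pass a threshold of 0.05.

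Most members were expressed above the median gene. Exon length here is the union of all annotated exons of a gene, so that levels per kb and ratios between genes depend on the annotation. On the scale of signal per kb of exon, averaged over the 4 libraries, their median was 208, against 37.1 over all tested genes, and 45 of the 48 lay above that median. Mbd3, the subunit that links the parts of NuRD, had the highest level at 1907 per kb. Below it stood the NuRD ATPase Chd4 at 939, the deacetylase Hdac2 at 773, Smarca4 at 716 and the SWI/SNF core subunit Smarcc2 at 607 per kb. At the low end were the class II deacetylase Hdac4 at 45.7, the PRC1 reader Cbx7 at 24.6, the second NuRD ATPase Chd3 at 12.4 and Actl6b at 1.28 per kb.

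**Figure D2:**
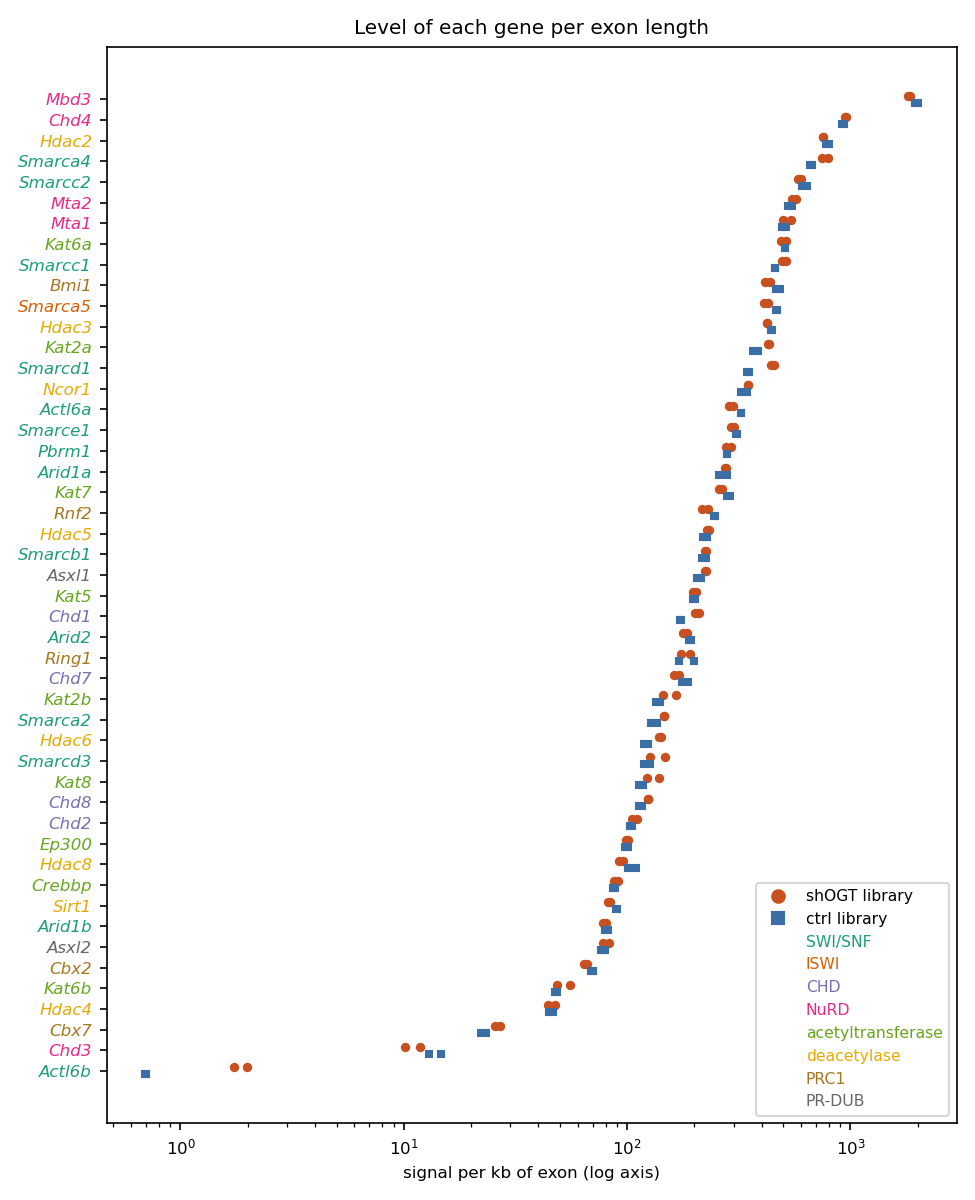
Signal per kb of exon (log axis) of each gene in each library, ordered by mean level and coloured by complex; circles are the 2 shOGT libraries and squares the 2 ctrl libraries. Levels run from 1.28 per kb for Actl6b to 1907 for Mbd3, and for most genes the circles and squares lie close together.

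SWI/SNF, the largest group, had most calls, 2 of its 14 measured genes, both higher, and its median log2 fold change was 0.03. Over all tested genes 4.86% were called, and with 2 genes no more is read from this count. Separated libraries were found in 9 of the 14, 5 higher and 4 lower in shOGT cells, against 25.0% and 24.3% of all tested genes. The subunits thus did not shift one way together.

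Smarcd1 encodes a core subunit that contacts transcription factors. Its signal was 1834 and 1767 in shOGT libraries, against 1421 and 1380 in ctrl libraries, or 1801 ± 47.0 against 1400 ± 29.2 (mean ± SD, n = 2 each). Both shOGT libraries lay well above both ctrl libraries, and the log2 fold change was 0.36 ± 0.05 SE (95% interval 0.25 to 0.47, limma adjusted p = 0.0048). The gene (ENSMUSG00000023018) lies on chromosome 15, from 99702129 to 99713991 in GENCODE M21 (GRCm38), on the plus strand. Its exons overlap those of Gm17349 by 287 bases and of Gm34939 by 224, both on the other strand. Neither gene exceeded a signal of 7.94 in any library.

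Smarca4 encodes BRG1, the ATPase used most in progenitor forms of the complex. It measured 5116 and 4809 in shOGT libraries and 4258 and 4373 in ctrl libraries (4962 ± 217 against 4315 ± 80.8, mean ± SD, n = 2 each). All shOGT values were the higher ones, with a log2 fold change of 0.20 ± 0.04 SE (95% interval 0.10 to 0.30, limma adjusted p = 0.030). The gene (ENSMUSG00000032187) lies on chromosome 9, from 21616169 to 21704230, on the plus strand. Within its exons, 99 bases are shared with the small RNA gene Gm27373.

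Its paralog Smarca2, the alternative ATPase BRM, had 2089 and 2077 in shOGT libraries, against 1819 and 1938 in ctrl libraries. The groups did not overlap, yet the log2 fold change of 0.15 did not pass (limma adjusted p = 0.127). Per kb of exon, Smarca4 stood at 5.40 and 5.10 times Smarca2 in shOGT libraries and 5.16 and 4.97 times in ctrl libraries. These ratios overlapped between groups, and Smarca4 prevailed in every library.

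Smarcc1 and Smarcc2, which encode a pair of scaffold subunits, differed in the sign of their values. For Smarcc1 the signal was 4028 and 3848 in shOGT libraries, against 3588 and 3613 in ctrl libraries (log2 fold change 0.13, limma adjusted p = 0.117). For Smarcc2 it was 3335 and 3219 in shOGT libraries, against 3355 and 3561 in ctrl libraries (log2 fold change -0.08, limma adjusted p = 0.399). Neither gene passed, but the ratio of Smarcc1 to Smarcc2 per kb was 0.856 and 0.847 in shOGT libraries, above the 0.758 and 0.719 of ctrl libraries. The groups did not overlap in this ratio, but the difference was not tested: permuting 2 and 2 libraries exactly gives no p below 0.333.

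The Smarcd paralogs both had positive log2 fold changes, and only that of Smarcd1 passed. Smarcd3, a subunit best known from heart and muscle, had 759 and 648 in shOGT libraries and 651 and 606 in ctrl libraries, which overlap (log2 fold change 0.16, limma adjusted p = 0.354). Exons of Smarcd3 share 48.2% of their length with Chpf2 on the other strand, and the files do not say whether counting used strand. The ratio of Smarcd1 to Smarcd3 per kb was 3.07 and 3.47 in shOGT libraries, against 2.78 and 2.90 in ctrl libraries, with no overlap. This difference was not tested either.

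Actl6a, the actin-like subunit of progenitors, had 1158 and 1116 in shOGT libraries, below the 1260 and 1252 of ctrl libraries (log2 fold change -0.14, limma adjusted p = 0.169). Its exons share 11.6% of their length with Mrpl47 on the other strand, whose log2 fold change was -0.06. Actl6b, the subunit of postmitotic neurons, was near the floor in all libraries, with 7.44 and 8.48 in shOGT and 2.99 and 2.98 in ctrl cells. If the step between the values of a library is taken as 1 read, which the files do not state, these are 7 and 9 reads in shOGT libraries and 3 and 3 in ctrl libraries. On that reading the ratio of the 2 groups was 2.68 with an exact 95% counting interval of 0.996 to 8.36, which covers counting error only, and limma gave an adjusted p of 0.251. Actl6a exceeded Actl6b per kb by 171 and 144 times in shOGT libraries and by 462 times in both ctrl libraries, a ratio that rests on these few Actl6b reads. Actl6a transcripts thus prevailed over Actl6b transcripts in every library.

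Other genes of the same exchange gave no common direction. On the progenitor side Dpf2 rose (log2 fold change 0.25), while Phf10 was at 0.15, Ss18 at -0.10 and Actl6a at -0.14, none of them past the threshold. Among the neuronal genes Dpf1 was at -0.22, Dpf3 at 0.04 and Ss18l1 at 0.12, none past it either. Dpf2, a histone reader of the canonical complex, had 1780 and 1812 in shOGT libraries, against 1512 and 1506 in ctrl libraries (limma adjusted p = 0.018).

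The subunits that steer the complex to its sites barely differed. Arid1a, a DNA-binding subunit of the canonical form, had 3162 and 3171 in shOGT libraries and 2968 and 3224 in ctrl libraries (log2 fold change 0.03). Arid1b had 987 and 1012 in shOGT libraries and 1037 and 1002 in ctrl libraries (log2 fold change -0.03). Arid1a exceeded Arid1b per kb by 3.52 and 3.44 times in shOGT libraries and 3.14 and 3.53 times in ctrl libraries. Arid2 and Pbrm1, which define the PBAF form, were at -0.08 and 0.03. Smarcb1 and Smarce1, core subunits without a paralog here, were at 0.02 and -0.06. The 95% intervals of these 6 genes lay between -0.183 and 0.142.

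**Figure D3:**
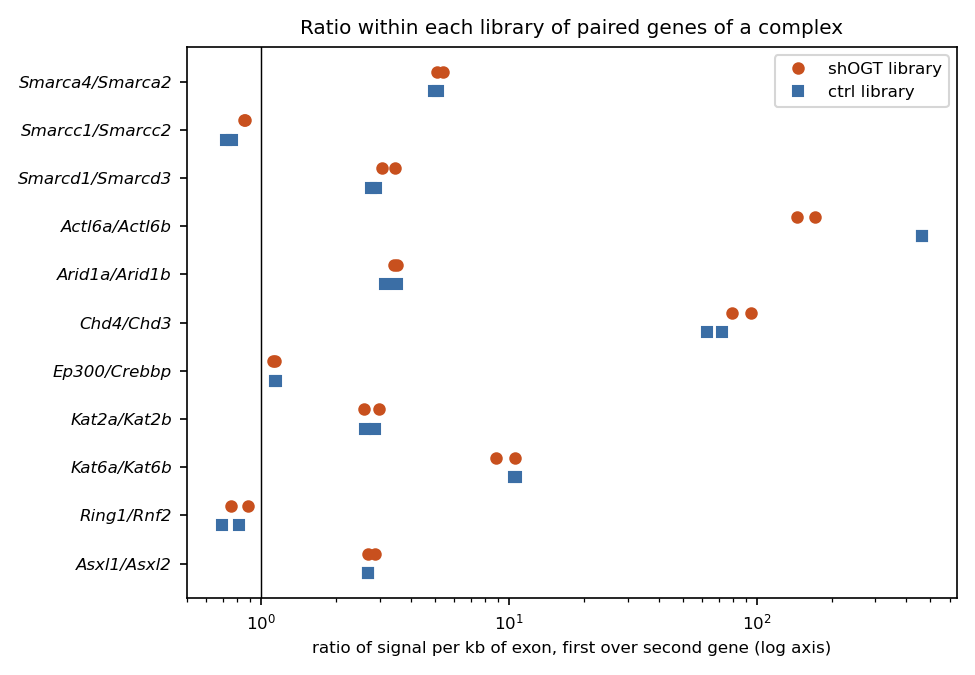
Ratio of paired genes within each library, as signal per kb of exon of the first over the second gene (log axis); circles are shOGT libraries and squares ctrl libraries. Smarcc1/Smarcc2, Smarcd1/Smarcd3 and Chd4/Chd3 lie higher in both shOGT libraries, Actl6a/Actl6b lies lower on very few Actl6b reads, and most other pairs overlap.

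Among the CHD remodellers, 1 of 4 rose and none fell, against 1.96% and 2.9% of all tested genes. With 1 gene called, no more is read from this count. Chd1, which binds the methylated histone H3 tail at active promoters and restores nucleosomes behind RNA polymerase, had 1824 and 1754 in shOGT libraries, against 1525 and 1509 in ctrl libraries. The group means were 1789 ± 49.6 and 1517 ± 11.3 (SD, n = 2 each), with no overlap. Its log2 fold change was 0.24 ± 0.05 SE (95% interval 0.13 to 0.35, limma adjusted p = 0.025). Chd1 (ENSMUSG00000023852) lies on chromosome 17, from 15704967 to 15772610, on the plus strand, and shares no exon with another annotated gene.

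Chd8, a remodeller linked to autism, was at a log2 fold change of 0.10, with both shOGT libraries above both ctrl libraries (2040 and 2041 against 1876 and 1921, limma adjusted p = 0.243). Chd7, mutated in CHARGE syndrome and known to support adult neurogenesis, had 2345 and 2226 in shOGT libraries, below the 2424 and 2590 of ctrl libraries (log2 fold change -0.13, limma adjusted p = 0.185). Chd2, the closest relative of Chd1, was at 0.05, and its exons share 18.4% of their length with 1810026B05Rik on the same strand. The close relatives Chd1 and Chd2 thus had different outcomes in the test, although the difference between them was not tested. Smarca5, the ATPase of the ISWI complexes, was the uncalled gene with the smallest p. It had 3310 and 3202 in shOGT libraries, against 3633 and 3611 in ctrl libraries, without overlap (log2 fold change -0.15 ± 0.04 SE, 95% interval -0.24 to -0.06, limma adjusted p = 0.063).

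None of the 5 NuRD genes passed, and their median log2 fold change was 0.03. Chd4, the main ATPase, had 7548 and 7675 in shOGT libraries and 7384 and 7506 in ctrl libraries (log2 fold change 0.03, 95% interval -0.04 to 0.11). Chd3, its low relative, had 99.9 and 85.8 in shOGT libraries and 124 and 109 in ctrl libraries (log2 fold change -0.32, 95% interval -0.68 to 0.03, limma adjusted p = 0.304). Chd4 therefore outweighed Chd3 in every library, by 79.5 and 94.2 times per kb in shOGT libraries and 62.9 and 72.4 times in ctrl libraries. The scaffold genes Mta1 and Mta2 were at 0.03 and 0.06 with overlapping libraries. Mbd3 had 3687 and 3610 in shOGT libraries, against 3860 and 4001 in ctrl libraries (log2 fold change -0.11, limma adjusted p = 0.181).

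**Figure D4:**
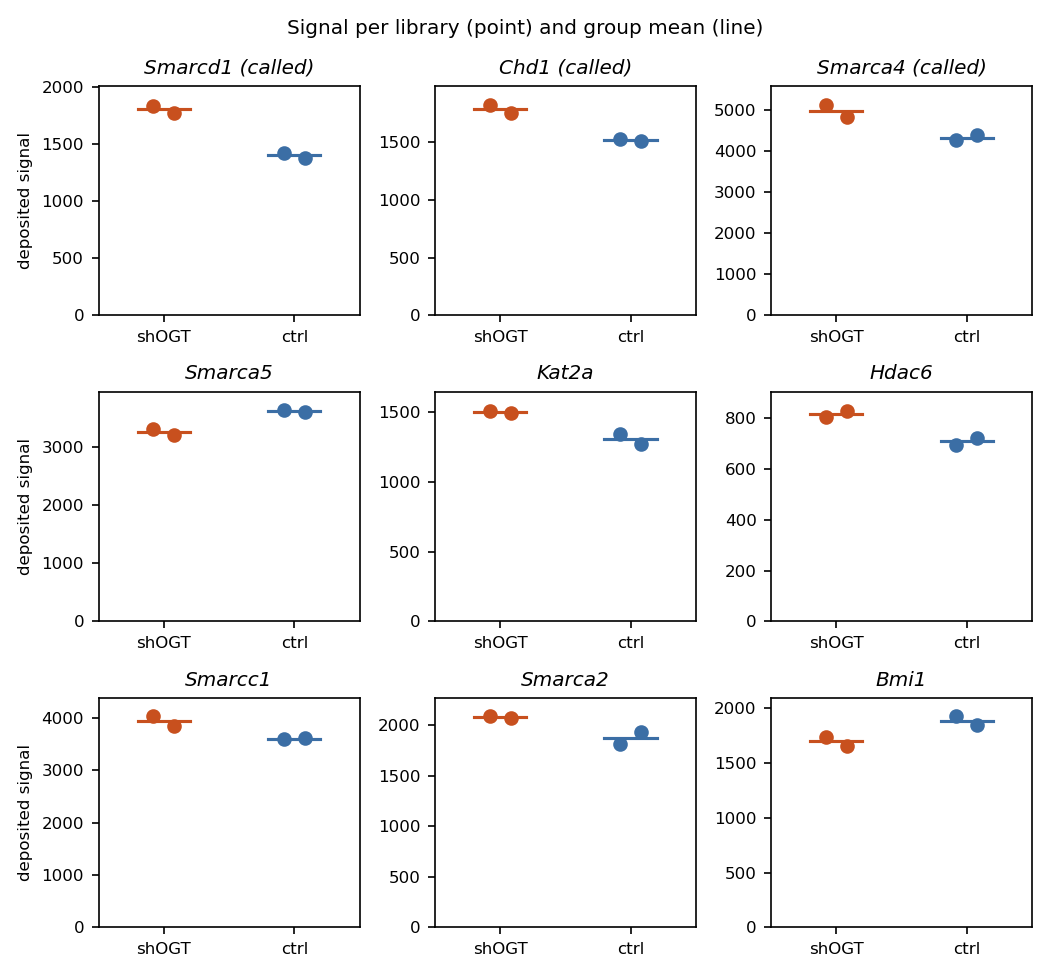
Deposited signal (vertical axis from 0) in each library, with the group mean as a line, for the 3 genes called higher and the 6 uncalled genes of smallest p. In all 9 panels the 2 shOGT libraries lie on one side of the 2 ctrl libraries: above for 7 genes, below for Smarca5 and Bmi1.

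No histone acetyltransferase passed, out of 9, and the median log2 fold change was 0.03. Kat2a, the GCN5 enzyme of the SAGA and ATAC complexes, came nearest. It had 1510 and 1493 in shOGT libraries, against 1345 and 1272 in ctrl libraries, without overlap (log2 fold change 0.20 ± 0.05 SE, 95% interval 0.08 to 0.32, limma adjusted p = 0.064). With libraries rescaled to equal totals its adjusted p was 0.045. Its paralog Kat2b had 706 and 806 in shOGT libraries and 655 and 681 in ctrl libraries (log2 fold change 0.17, limma adjusted p = 0.249), and the ratio of the pair, 2.99 and 2.59 in shOGT libraries and 2.87 and 2.61 in ctrl libraries, overlapped.

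Ep300 and Crebbp, the closely related coactivator acetyltransferases, had small differences. Ep300 had 1447 and 1412 in shOGT libraries and 1433 and 1401 in ctrl libraries, and its 95% interval ran from -0.10 to 0.12. Crebbp had 1227 and 1181 in shOGT libraries and 1190 and 1172 in ctrl libraries, with an interval from -0.09 to 0.15. Log2 differences beyond 0.15 in either direction thus lay outside both intervals. The ratio of Ep300 to Crebbp per kb ranged only from 1.12 to 1.14 over the 4 libraries.

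The MYST acetyltransferases differed in sign. Kat8, which acetylates histone H4 and works in the NSL complex, was at 0.17 with separated libraries (400 and 353 in shOGT, 339 and 327 in ctrl, limma adjusted p = 0.338). Kat7, which acetylates histone H3 near replication origins, was at -0.12, also with separated libraries (1425 and 1465 in shOGT, 1549 and 1591 in ctrl, limma adjusted p = 0.220). Kat5, the enzyme of the TIP60 complex, was at 0.0078 and overlapped, and its exons share 12.1% of their length with Rnaseh2c on the other strand. Kat6a, the most abundant of the 9 per kb at 505, had 4480 and 4718 in shOGT libraries and 4661 and 4669 in ctrl libraries. Kat6b, at 50.1 per kb, had 932 and 817 in shOGT libraries and 804 and 818 in ctrl libraries. Both overlapped, and the ratio of Kat6a to Kat6b was 8.81 and 10.6 in shOGT libraries and 10.6 and 10.5 in ctrl libraries.

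Deacetylases and their corepressor gave no call in 8 genes, with a median log2 fold change of -0.02. The class I enzymes among these 8 genes all had shOGT libraries below ctrl libraries without passing: Hdac2 at -0.07, Hdac3 at -0.06 and Hdac8 at -0.16. Hdac1, a class I enzyme of the second list below, went the other way. It had 2511 and 2701 in shOGT libraries, above the 2485 and 2481 of ctrl libraries (log2 fold change 0.07, limma adjusted p = 0.482). Over all tested genes, 24.3% had both shOGT libraries below both ctrl libraries, and no class trait is read from these genes. Of the class II enzymes, Hdac6, which acts mainly on tubulin in the cytoplasm, had 805 and 829 in shOGT libraries, against 695 and 720 in ctrl libraries (log2 fold change 0.21 ± 0.06 SE, 95% interval 0.07 to 0.34, limma adjusted p = 0.095). Hdac4 and Hdac5, the class II enzymes that shuttle between nucleus and cytoplasm, were at 0.02 and 0.04 and overlapped. Exons of Hdac4 share 22.4% of their length with Gm26720 on the other strand. Sirt1, the deacetylase that depends on NAD, had 436 and 446 in shOGT libraries, against 480 and 474 in ctrl libraries (log2 fold change -0.11, limma adjusted p = 0.445). Ncor1, which activates Hdac3, had 4463 and 4446 in shOGT libraries, above the 4131 and 4398 of ctrl libraries (log2 fold change 0.06, limma adjusted p = 0.463).

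PRC1 had the lowest median log2 fold change of the groups with more than 1 gene, -0.09 over 5 genes, and no call. Over the 23 other PRC1 and PR-DUB genes of the second list below, the median was -0.013 and the only call was higher. Bmi1, which sustains the self-renewal of neural stem cells, had 1738 and 1651 in shOGT libraries, against 1922 and 1843 in ctrl libraries, without overlap (log2 fold change -0.15 ± 0.05 SE, 95% interval -0.27 to -0.04, limma adjusted p = 0.132). Rnf2, the main ubiquitin ligase of the complex, had 894 and 954 in shOGT libraries, against 1020 and 1006 in ctrl libraries (log2 fold change -0.13, limma adjusted p = 0.255). Its paralog Ring1 had 623 and 566 in shOGT libraries and 554 and 644 in ctrl libraries, which overlap, and its 95% interval of -0.21 to 0.19 was wide for its level. Its log2 fold change was -0.0093, and 0.0075 with libraries rescaled to equal totals. The ratio of Ring1 to Rnf2 was 0.887 and 0.755 in shOGT libraries and 0.692 and 0.815 in ctrl libraries.

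The chromodomain readers of PRC1 differed in sign. Cbx2 had 283 and 272 in shOGT libraries, against 298 and 293 in ctrl libraries (log2 fold change -0.09, limma adjusted p = 0.642). Cbx7 had 175 and 167 in shOGT libraries, against 144 and 152 in ctrl libraries (log2 fold change 0.21, limma adjusted p = 0.379), and shares 100 bases of exon with Apobec3 on the other strand. Asxl1 and Asxl2, the PR-DUB partners of Bap1, were at 0.10 and 0.05. Asxl1 had 1679 and 1657 in shOGT libraries, above the 1522 and 1590 of ctrl libraries, and Asxl2 had 1246 and 1321 in shOGT libraries and 1215 and 1266 in ctrl libraries, which overlap. The ratio of Asxl1 to Asxl2 was 2.89 and 2.69 in shOGT libraries and 2.68 and 2.69 in ctrl libraries.

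A second list held 108 further subunits of the same complexes, all tested. Of these, 3 rose and 4 fell, 6.48% in all, with a median log2 fold change of 0.03. In SWI/SNF 1 of 15 rose and 1 fell, in NuRD 1 of 8 fell, and in the acetyltransferase complexes 1 of 24 rose and 1 fell. Among deacetylases and corepressors 1 of 20 fell, in PRC1 and PR-DUB 1 of 23 rose, and in ISWI, INO80 and CHD none of 18 passed. This share of calls also lay near the 4.86% of all tested genes.

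Bcl7a, an accessory SWI/SNF subunit, fell by 27.4%, with 604 and 593 in shOGT libraries, against 797 and 851 in ctrl libraries (log2 fold change -0.46 ± 0.07 SE, limma adjusted p = 0.0058). Cbx6, another chromodomain reader of PRC1, rose, with 3940 and 3842 in shOGT libraries, against 3053 and 3242 in ctrl libraries (log2 fold change 0.31 ± 0.04 SE, limma adjusted p = 0.0063). Within the SWI/SNF complex the calls thus pointed both ways, with Smarcd1, Smarca4 and Dpf2 higher and Bcl7a lower. Cbx6 shares 563 bases of exon with Npcd on the same strand.

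Trrap, the scaffold of the SAGA and TIP60 acetyltransferases, rose, with 3602 and 3603 in shOGT libraries, against 3267 and 3104 in ctrl libraries (log2 fold change 0.18, limma adjusted p = 0.046). Hat1, which acetylates newly made histone H4, fell, with 1566 and 1617 in shOGT libraries, against 1864 and 1832 in ctrl libraries (log2 fold change -0.22, limma adjusted p = 0.034). Rbbp7, the histone chaperone that binds Hat1 and is shared with NuRD, fell as well, with 3479 and 3615 in shOGT libraries, against 3984 and 4078 in ctrl libraries (log2 fold change -0.18, limma adjusted p = 0.034). Hat1 and Rbbp7 form the HAT1 enzyme, and both of its genes were lower.

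Hdac9, a class II deacetylase, fell, with 207 and 207 in shOGT libraries, against 299 and 275 in ctrl libraries (log2 fold change -0.47, limma adjusted p = 0.030). Short of the threshold were Chd6 (log2 fold change 0.19, limma adjusted p = 0.053), the corepressor gene Rcor1 (0.21, limma adjusted p = 0.061) and the PRC1 gene Phc3 (0.18, limma adjusted p = 0.065). Hcfc1 and Bap1, the PR-DUB subunits closest to OGT protein, were at -0.01 and -0.08 and did not pass.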

How the data were processed

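RNA sequencing libraries of adult neural stem cells were grouped by the treatment field of the labels (shOGT, 2 libraries; ctrl, 2 libraries) and numbered by their titles. The authors deposited 1 signal value per gene and library, not raw counts. Reads were processed on mm10, per the submitters' processing notes. The aligner, counter, normalization and strand setting were not given in the sources used here. Within each library 100% of the values were whole multiples of a single step (within 0.01 of it), and implied reads are values divided by that step, which the files do not state to be 1 read. Because the deposited unit is signal, no model of whole read counts was run.

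Symbols and exon lengths came from GENCODE M21, which matched 25250 identifiers and left 11 unmatched. Shared exons were counted against every annotated gene: 23 of the 48 genes overlap another gene, 5 of them over at least 10% of their exon length. limma 3.58.1 in R 4.3.3, with a variance trend, was fitted to log2(value + 1) for genes that reached 1 in 2 or more libraries, with Benjamini-Hochberg adjustment over all tested genes and a threshold of 0.05. The scripts were tested on simulated data, with log2 changes larger than those of the called members. Counting intervals used scipy 1.17.1 in Python 3.11.15. Replicates were checked by a chi-square of their implied reads over genes with at least 20 reads. It gave 3.33 per gene between shOGT libraries, 2.02 between ctrl libraries and 7.38 to 8.13 between groups. Replicates thus differed by more than sampling noise, which alone gives about 1 per gene, and each was counted.

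The members and all lists were chosen with earlier results of these data known. The rule for named genes allowed any member. It gave values in every library to the called genes, the 6 uncalled genes of smallest p and the paralog pairs. From the other subunits it took those called, up to 2 more per list of smallest p, and the exchange genes of SWI/SNF. Hcfc1 and Bap1 were named outside this rule. Alternatives were the pseudocount (0.5 and 5), the filter (none, or a minimum of 10), equal totals, quantile normalization, no variance trend, a replicate block and each library left out. The result of 1 marker gene is not reported here.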

Additional observations from a re-analysis of the deposited data

How the results depend on the processing

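Against 3 members higher, none lower and 1060 genes called, no filter, quantile normalization and no variance trend each left 0 members and 0 genes (4302, 3998 and 2763 genes at an unadjusted p under 0.05). A minimum of 10 gave 5 members higher, 1 lower and 1955 genes. It added Kat2a and Hdac6 (higher) and Smarca5 (lower), and left out Actl6b. Equal totals gave 4 members higher, 593 genes higher and 585 lower, and moved the members' median log2 fold change to 0.046, against 0.029. Pseudocounts of 0.5 and 5 kept the counts of members, with 941 and 1228 genes. With each library left out in turn and the same genes kept, 0 members and 0 genes passed, and the members' median was 0.014 to 0.044. With the filter applied to the libraries kept, chosen after seeing the data, 0 to 3 members were higher (2 without ctrl 1, 3 without ctrl 2, 0 without either shOGT library), 0 lower, and 0 to 1220 genes passed. Lone libraries were assumed to vary like the other group. The cause of these losses was not tested.

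The sign of Ring1 turned with equal totals (0.0075) and quantile normalization (0.0043). With libraries left out, on either set of genes, signs turned for Smarcb1 (-0.0060 to 0.053), Arid1a (-0.026 to 0.093), Pbrm1 (-0.0063 to 0.065), Mta1 (-0.025 to 0.093), Ep300 (-0.0048 and -0.0037, up to 0.030), Kat5 (-0.0083 and -0.0080, up to 0.02), Kat6a (-0.058 to 0.016), Hdac4 (-0.039 and -0.014, up to 0.069) and Ring1 (-0.12 to 0.098, and 0.060).

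Replicate numbers were not shown to pair the libraries: same-numbered deviations correlated at 0.007 over 21829 genes and 0.024 over 11080 genes of mean at least 100. The replicate block gave 5 members higher, 1 lower and 2302 genes. The 2 planned models of whole read counts were not run, since the files do not state that a step is 1 read. Implied reads served only for depth, the replicate check and Actl6b. The simulated data also took the smallest positive value of each library as 1 read. Depth limits Actl6b, and only 2 libraries a group limit every call.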

Other observations

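Earlier work on these data had noticed short letter strings in the 3′ UTRs of called genes, and the members were described by them. The shares among called genes thus come from the data in which the strings were found. Median 3′ UTR length was 1566 bases in genes called lower, 1731 in genes called higher, 1360 in members and 1148 in all tested genes. The part of length in the shares below was not tested. GCTATC or GTACCC stood in 14 of the 48 members (29.2%), against 55.1% of genes called lower, 29.6% of genes called higher and 29.2% of all 15109 tested genes with a 3′ UTR. The members' median log2 fold change was 0.003 for the 14 with either string and 0.03 for the 34 without. GTGTCAC stood in 5 members (10.4%), against 20.8% of genes called higher, 8.50% of genes called lower and 10.5% of all tested genes with a 3′ UTR. Smarcd1 held 1 GCTATC, 1 GTACCC and 2 GTGTCAC, Smarca4 held 1 GTGTCAC, and Chd1 held none of the 3 strings. Of the 108 other subunits, 38 (35.2%) held GCTATC or GTACCC and 14 (13.0%) held GTGTCAC. Among the 7 that were called, Bcl7a held 2 GTACCC and 1 GTGTCAC, and Hdac9 1 of each, both of them lower in shOGT cells. Cbx6, higher in shOGT cells, held 1 GCTATC. Hat1 and Rbbp7, lower in shOGT cells, and Dpf2 and Trrap, higher, held none of the 3 strings. A match is a run of letters only.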
